A study of Homo sapiens with 6 samples.

Results

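The ZNF genes numbered 300 and above are human genes whose current symbol is ZNF followed by a number of at least 300 and at most 1 letter, and 260 of them were measured here, out of 15949 named genes. They were taken by symbol alone, from rows with a single gene symbol in the array annotation, and a gene with several rows was represented by the row with the highest mean over the 6 arrays. Only ZNF616 and ZNF770 had a further row. Of the 260 symbols, 6 were older names brought up to date, among them HKR1, now ZNF875. The RefSeq gene table lists 360 protein-coding genes that fit the same rule, of which 252 had a row. The cells were PLC/PRF/5, a long-established line from a human hepatocellular carcinoma, harvested 48 h after lipid transfection with siRNAs (short double-stranded RNAs that lead to cleavage of a matching transcript). The control group of 3 arrays received an irrelevant siRNA, named siGL2 in the design text and siGL1 to siGL3 in the sample descriptions, and the siSLU7 group of 3 arrays received siRNAs against SLU7, a splicing factor of the second catalytic step. All arrays were Affymetrix Human Exon 1.0 ST, and each value is a log2 expression level for a transcript cluster, the merged core probe sets of 1 gene locus.

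Most proteins of this family are transcription factors built from arrays of C2H2 zinc fingers, small folds in which a zinc ion is held by cysteines and histidines and which read DNA bases. Many begin with a KRAB domain, which binds the corepressor TRIM28. TRIM28 in turn brings in the histone methyltransferase SETDB1 and heterochromatin proteins, and a large part of the family is known for silencing transposable elements. Many members arose by tandem duplication and lie next to one another. Others carry no KRAB domain, and some members act in RNA processing, ribosome assembly or protein modification.

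Within the series, SLU7 itself was lower by 1.51 ± 0.31 (SE) log2 units with its siRNAs, without overlap between groups, with a limma adjusted p of 0.078 over all clusters and an exact two-sided permutation p of 0.1, the smallest that 3 arrays against 3 allow. No label says whether replicates came from separate cultures, and the p-values cover the variation among these arrays alone, part of which may be technical. In RNA from a whole culture, fewer expressing cells and less RNA per cell cannot be told apart. On the first principal component control replicate 2 and siSLU7 replicate 1 lay far from the remaining 4 arrays, across the groups, and results are also given inside that pair and inside the remaining 4 where these bear on them. Of 9 hepatocyte and hepatoma markers, 6 were bright, while ALB, the albumin gene, was dim at 3.87 log2 units with control siRNA. All 9 were lower with SLU7 siRNA in their means, and limma passed none of them. None of 4 blood markers was bright, against 1 of 3 endothelial markers (PECAM1) and 1 of 5 fibroblast markers (PDGFRB). The median of the hepatocyte markers ran from 10.2 to 11.0 log2 units on the control arrays and from 9.39 to 9.68 on the siSLU7 arrays, and the part of this in the results below was not tested.

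As a group, the ZNF genes were shifted upward after SLU7 siRNA. The difference between group means was above 0 in 189 of the 260 genes (72.7%), compared with 50.5% of all 18708 clusters. The median difference was 0.24 log2 units, or 1.18-fold, compared with 0.0043 over all clusters. The 3 siSLU7 arrays all lay above the 3 control arrays for 58 members (22.3%), where 9.64% of all clusters did so. They all lay below for 4 members (1.54%), against 9.21% of all clusters. Differences of at least 1 log2 unit were found upward in 35 members (13.5%, against 3.34% of clusters) and downward in 3 (1.15%, against 3.57%), the 3 being ZNF681, ZNF444 and ZNF449. These shares describe the list beside the table, and no test of the list was made.

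Gene by gene, the limma test passed 1 member, ZNF304, which rose, where 0.134% of all clusters were called higher and 0.299% lower at an adjusted p under 0.05. No member was called lower by limma, and at an unadjusted p under 0.05 there were 50 members higher and 2 lower, where 6.55% and 6.54% of all clusters lay past that mark. The median standard error of a member's difference was 0.32 log2 units, close to the 0.31 of all clusters. Replicate spread was also like that of the table, with a median SD among members of 0.39 log2 units in the control group and 0.33 in the siSLU7 group, compared with 0.37 and 0.33 over all clusters.

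Bright rows were described apart from dim rows, a row being bright when its mean over the 6 arrays was at or above 6.61 log2 units, the median of all clusters. That mean includes the siSLU7 arrays, so a gene that rose could be bright through them. ZNF304, ZNF473, ZNF512 and ZNF830 were bright and rose by at least 1 log2 unit. Their control means of 6.25, 5.93, 6.39 and 6.22 lay under the mark. On dim rows little signal stands above background, which can shrink a true difference and widen the spread. Of the members 116 were bright and 144 dim. The bright members had a median difference of 0.19 log2 units, or 1.14-fold, with 84 above 0 (72.4%, against 49.7% of bright clusters). For 33 of them (28.4%) the siSLU7 arrays all lay higher, compared with 12.3% of bright clusters, and for 1 (0.862%) they all lay lower, compared with 12.0%. Limma called 1 bright member higher and 0 lower (0.203% and 0.481% of bright clusters), and at an unadjusted p under 0.05 there were 25 higher and 0 lower (7.94% and 8.02% of bright clusters). Differences of at least 1 log2 unit numbered 11 upward and 0 downward (3.46% and 3.75% of bright clusters).

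The dim members had a median difference of 0.28 log2 units, or 1.22-fold, with 105 above 0 (72.9%, against 51.3% of dim clusters). Among these 25 lay higher without overlap (17.4%, against 7.01% of dim clusters) and 3 lower (2.08%, against 6.47%). Limma called 0 dim members higher and 0 lower (0.0641% and 0.118% of dim clusters), with 25 higher and 2 lower at an unadjusted p under 0.05 (5.16% and 5.07%). At least 1 log2 unit separated the groups upward in 24 and downward in 3 (3.22% and 3.38% of dim clusters). The upward shift was thus present on both sides of the split, in the median and in the counts. The median of all clusters was -0.0032 for bright and 0.013 for dim rows.

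**Figure D1:**
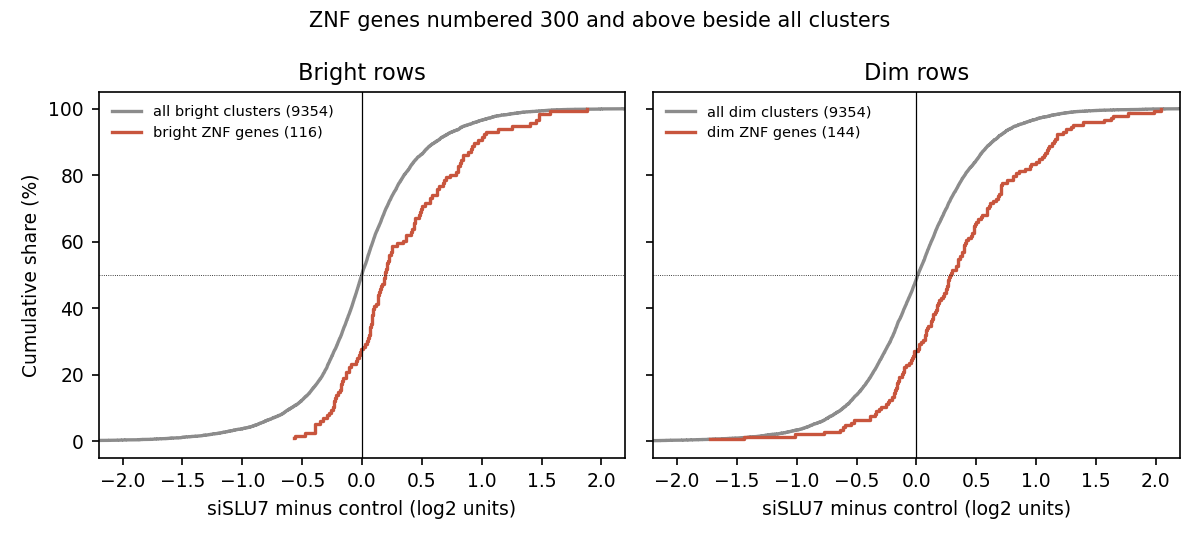
Cumulative share of genes (vertical axis, %) by difference between siSLU7 and control group means (horizontal axis, log2 units), for bright rows on the left and dim rows on the right; red lines are the 116 bright and 144 dim ZNF genes and grey lines the 9354 clusters of the same class. The red lines lie to the right of the grey ones, crossing the dotted 50% line at 0.19 (bright) and 0.28 (dim) log2 units, while the grey lines cross it at -0.0032 and 0.013.

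The shift was visible array by array. Each row was set against its own mean over the 6 arrays, and the median of these deviations was taken over the bright members on each array. It was -0.13, 0.020 and -0.12 log2 units on control replicates 1, 2 and 3 and 0.15, 0.11 and 0.087 on siSLU7 replicates 1, 2 and 3. The 3 siSLU7 arrays thus lay above the 3 control arrays, with control replicate 2 the highest control. Over all bright clusters the same medians were -0.042, 0.067 and -0.012 on the control arrays and 0.054, -0.026 and -0.023 on the siSLU7 arrays, where the groups overlapped. For the dim members the medians were -0.10, -0.24 and -0.14 with control siRNA and -0.0077, 0.24 and 0.27 with SLU7 siRNA, so siSLU7 replicate 1 lay much closer to the controls than the other 2 did. Between control replicate 2 and siSLU7 replicate 1 alone, where 1 array faces 1 array and no error can be given, the median difference was 0.16 log2 units for bright and 0.21 for dim members. Among the remaining 4 arrays it was 0.18 and 0.36. Altogether 138 members were above 0 in the pair and in the remaining 4 alike, and 39 were below 0 in both.

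**Figure D2:**
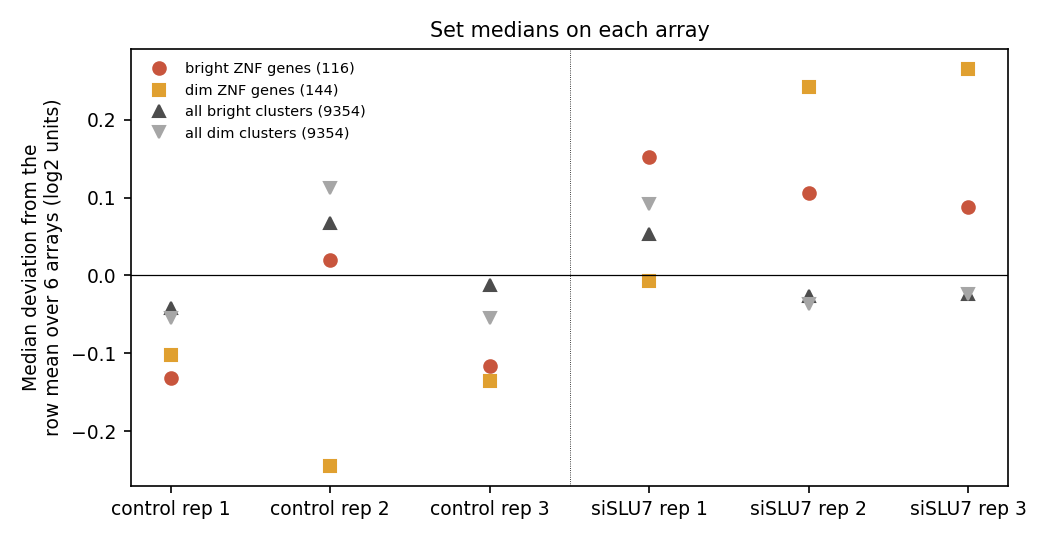
Median deviation of a set of rows from their own means over the 6 arrays (vertical axis, log2 units) on each array (horizontal axis, 3 control and 3 siSLU7 replicates); circles are the bright and squares the dim ZNF genes, triangles all bright and all dim clusters. Bright ZNF genes run from -0.13 to 0.020 on the control arrays and from 0.087 to 0.15 on the siSLU7 arrays, while all bright clusters overlap between the groups.

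ZNF304, a KRAB zinc finger protein described as a TRIM28-recruiting repressor in colorectal cancer cells, was the called member. Its level (transcript cluster 3843187) was 6.14, 6.39 and 6.22 log2 units on control replicates 1 to 3 and 7.76, 7.77 and 7.65 on siSLU7 replicates 1 to 3. The control mean of 6.25 lay under the mark for bright rows, so the gene was bright through its siSLU7 arrays. Both groups were tight and lay far apart, with SDs of 0.13 and 0.065 (n = 3). It rose by 1.48 ± 0.23 (SE) log2 units, or 2.79-fold (limma adjusted p = 0.048). The rise was 1.37 in the outlying pair and 1.53 among the remaining 4 arrays. Without any 1 of the 6 arrays the call was lost, with limma adjusted p from 0.070 (without control replicate 2) to 0.20 (without siSLU7 replicate 2), and no cluster of the table passed in any of those 6 analyses.

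Among the other bright members, ZNF317, a KRAB zinc finger gene, stood at 8.56, 8.31 and 8.68 log2 units with control siRNA and at 9.80, 10.06 and 9.90 with SLU7 siRNA. The groups were well apart, and the difference was 1.40 ± 0.24 (SE) log2 units with a limma adjusted p of 0.053. ZNF383, also a KRAB gene, was 7.65, 7.08 and 7.63 in the controls and 8.76, 9.08 and 8.97 after SLU7 siRNA. Here control replicate 2 was the lowest array, and the difference of 1.48 ± 0.27 log2 units had a limma adjusted p of 0.058. ZNF408, in which variants cause inherited retinal disease, was 7.16, 6.65 and 7.22 in the controls and 8.28, 8.97 and 8.49 with SLU7 siRNA. It was higher by 1.57 ± 0.29 log2 units (limma adjusted p = 0.063).

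The largest difference among bright members was in ZNF473, which is not a DNA-binding repressor by its best known role: it encodes ZFP100, the zinc finger protein that joins the U7 small nuclear ribonucleoprotein to the stem-loop of histone pre-mRNA for 3′ end processing. Its level was 5.60, 5.67 and 6.53 log2 units with control siRNA and 7.53, 8.24 and 7.67 with SLU7 siRNA. With a control mean of 5.93, under the mark for bright rows, it too was bright through its siSLU7 arrays. Control replicate 3 was the highest control and still lay well below the lowest siSLU7 array. The difference was 1.88 ± 0.34 (SE) log2 units, 3.69-fold, with a limma adjusted p of 0.058.

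ZNF677, ZNF557 and ZNF621 completed the 8 bright members with the largest differences without overlap. ZNF677, a KRAB gene, was 7.16, 6.65 and 6.29 log2 units in the controls and 7.89, 8.04 and 7.93 with SLU7 siRNA, a difference of 1.25 ± 0.29 (limma adjusted p = 0.10). ZNF557, another KRAB gene, was 7.23, 6.60 and 7.64 in the controls and 7.86, 8.68 and 8.33 with SLU7 siRNA, a difference of 1.13 ± 0.35 (limma adjusted p = 0.20). ZNF621 was 7.68, 6.09 and 7.48 in the controls and 7.88, 8.94 and 8.79 with SLU7 siRNA. In ZNF621 the groups nearly touch, and the difference of 1.45 ± 0.47 log2 units became 0.96 without control replicate 2. The other 25 bright members whose siSLU7 arrays all lay higher had differences from 0.22 to 1.01 log2 units, from ZNF706 to ZNF512.

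The promoters of the 4 members with the smallest adjusted p that have an entry in the RefSeq promoter table (GRCh38.p14) are shown because these genes carry the clearest differences. Each is the 250 bases before the annotated start, all on the plus strand: ZNF304 at chr19:57351021-57351270, ZNF317 at chr19:9140147-9140396, ZNF383 at chr19:37217964-37218213 and ZNF408 at chr11:46700781-46701030. Capitals mark matches on either strand to any of 4 motifs, which are the GC box GGGCGG, the ETS core CCGGAAG, the YY1 motif AAGATGGCG and the palindromic NRF1 consensus.
ZNF304: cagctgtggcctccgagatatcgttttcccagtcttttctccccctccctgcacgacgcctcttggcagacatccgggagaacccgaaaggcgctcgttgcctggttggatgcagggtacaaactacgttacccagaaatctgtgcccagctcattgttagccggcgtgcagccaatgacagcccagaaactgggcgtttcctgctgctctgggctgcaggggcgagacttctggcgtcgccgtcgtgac
ZNF317: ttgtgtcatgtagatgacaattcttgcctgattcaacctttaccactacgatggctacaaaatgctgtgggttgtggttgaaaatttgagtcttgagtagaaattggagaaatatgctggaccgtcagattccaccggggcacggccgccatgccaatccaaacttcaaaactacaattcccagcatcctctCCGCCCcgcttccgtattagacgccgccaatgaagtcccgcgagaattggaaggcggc
ZNF383: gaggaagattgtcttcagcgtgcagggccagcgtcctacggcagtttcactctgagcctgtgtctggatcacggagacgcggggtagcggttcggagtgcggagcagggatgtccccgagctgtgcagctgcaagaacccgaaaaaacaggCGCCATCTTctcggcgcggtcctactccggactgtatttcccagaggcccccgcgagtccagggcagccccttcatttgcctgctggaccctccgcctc
ZNF408: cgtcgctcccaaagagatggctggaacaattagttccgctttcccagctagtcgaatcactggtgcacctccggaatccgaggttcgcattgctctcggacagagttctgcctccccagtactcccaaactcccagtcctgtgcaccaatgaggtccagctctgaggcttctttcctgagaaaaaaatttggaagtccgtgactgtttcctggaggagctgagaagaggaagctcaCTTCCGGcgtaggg

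These 4 windows held few matches: a GC box in ZNF317, a YY1 motif in ZNF383, an ETS motif in ZNF408 and none of the 4 in ZNF304. Over the 214 members with an entry, the ETS motif occurred in 58 (27.1%) of such windows, compared with 11.8% of 15843 protein-coding genes in the table. It occurred in 18 of 49 (36.7%) members whose siSLU7 arrays all lay higher and in 40 of 165 (24.2%) other members. The same division gave 59.2% and 64.2% for the GC box, 4.08% and 2.42% for the YY1 motif, and 0 of 49 and 3.03% for the NRF1 motif, so the motifs did not all lean one way, and none of these differences was tested. The GC box occurred in 63.1% of member windows and 56.0% of all, the YY1 motif in 2.80% and 0.751%, and the NRF1 motif in 2.34% and 1.48%. The median GC content was 62.4% both in member windows and in all windows. None of the 4 motifs contains another, and a match describes the letters of a window, not binding.

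Only 1 bright member lay lower without overlap. ZNF580 was 9.99, 9.76 and 9.97 log2 units with control siRNA and 9.55, 9.52 and 9.59 with SLU7 siRNA. The groups were tight but close, and the difference of -0.35 ± 0.23 (SE) log2 units did not pass (limma adjusted p = 0.61).

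Among dim members the largest upward differences without overlap were in ZNF480, ZNF425 and ZNF701. ZNF480 was 5.54, 3.50 and 6.40 log2 units in the controls and 6.79, 7.34 and 7.44 with SLU7 siRNA. Control replicate 2 was far below the other controls, and the difference of 2.04 ± 0.65 (SE) log2 units (limma adjusted p = 0.21) became 1.22 without it. ZNF425 was 5.02, 4.04 and 5.09 in the controls and 6.12, 6.91 and 7.07 with SLU7 siRNA, a difference of 1.98 ± 0.38 (limma adjusted p = 0.067) that was 2.08 in the outlying pair and 1.94 among the remaining 4. ZNF701 was 3.53, 4.06 and 3.60 in the controls and 4.94, 5.39 and 6.16 with SLU7 siRNA, a difference of 1.77 ± 0.35 (limma adjusted p = 0.072) that was 0.88 in the outlying pair and 2.21 among the remaining 4 arrays. The other 22 dim members with all siSLU7 arrays higher differed by 0.52 to 1.64 log2 units.

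The 3 dim members that lay lower without overlap were ZNF681, ZNF444 and ZNF784. ZNF681, from a block of duplicated KRAB genes, was 5.22, 5.29 and 4.43 log2 units in the controls and 2.24, 3.21 and 4.31 with SLU7 siRNA. Its siSLU7 arrays spread widely and the highest of them nearly reached the lowest control, and the difference was -1.73 ± 0.51 (SE), with a limma adjusted p of 0.18. It was -3.05 in the outlying pair and -1.07 among the remaining 4 arrays. ZNF444, which carries a SCAN domain for pairing with other zinc finger proteins, was 6.93, 5.90 and 6.44 in the controls and 4.47, 5.23 and 5.27 with SLU7 siRNA. Its difference was -1.44 ± 0.35 (limma adjusted p = 0.12), and -1.44 in the outlying pair and among the remaining 4 arrays alike. ZNF784 was 5.37, 7.04 and 5.22 in the controls and 5.16, 5.18 and 4.97 with SLU7 siRNA, so its difference of -0.77 ± 0.46 came largely from control replicate 2 and was -0.19 without it.

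**Figure D3:**
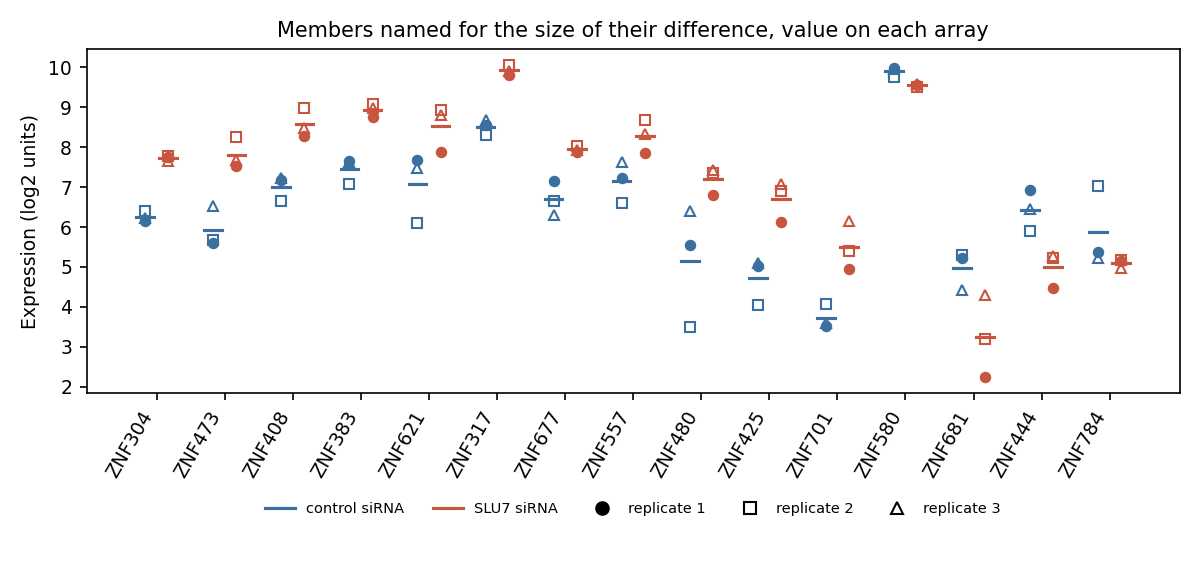
Expression (vertical axis, log2 units) on each array for the 15 members named for their size of difference, in the order bright higher, dim higher, bright lower and dim lower; blue is control siRNA, red SLU7 siRNA, markers are replicates 1 to 3 and bars the group means. ZNF304 shows the tightest groups of the higher genes, and control replicate 2 is the outlying point of ZNF480 and ZNF784.

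A further list held 18 members with a known role, of which 17 had a row (ZNF638 was not analysed here). For 8 of the 17 the siSLU7 arrays all lay higher, for 0 all lower, and for 9 the groups overlapped, where 9.64% of all clusters lay higher without overlap and 9.21% lower. Of all 260 members, 22.3% lay higher and 1.54% lower without overlap. The median difference of the 17 was 0.14 log2 units, below the 0.24 of all members. None of the 17 passed the limma test. In RNA and ribosome biology, ZNF622, a cofactor of large ribosomal subunit maturation, was 8.53, 8.28 and 8.06 log2 units in the controls and 8.59, 8.87 and 9.28 with SLU7 siRNA, a difference of 0.63 ± 0.28 (SE; limma adjusted p = 0.39). ZNF593, related to a yeast export factor of the same subunit, was 8.90, 8.79 and 8.67 in the controls and 9.27, 9.25 and 9.41 with SLU7 siRNA, a difference of 0.52 ± 0.23 (limma adjusted p = 0.39). In both genes all siSLU7 arrays were above all controls, by little in ZNF622. ZNF598, the ubiquitin ligase that marks collided ribosomes, was 10.23, 10.95 and 10.42 in the controls and 10.64, 10.35 and 10.29 with SLU7 siRNA. Its groups overlapped, and the difference of -0.11 had a 95% interval from -0.75 to 0.53.

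Among regulators of chromatin and protein modification, ZNF410, a zinc finger activator whose main known target is the chromatin remodeller gene CHD4, was 9.89, 9.77 and 10.09 log2 units in the controls and 10.66, 11.01 and 10.74 with SLU7 siRNA. The groups were well apart, and the difference was 0.89 ± 0.25 (SE; limma adjusted p = 0.16), 0.89 in the outlying pair and among the remaining 4 arrays alike. CHD4 itself differed by 0.34 ± 0.30 (limma adjusted p = 0.73). ZNF451, a SUMO ligase, was 8.85, 7.95 and 8.93 in the controls and 9.08, 9.43 and 9.67 with SLU7 siRNA, a difference of 0.82 ± 0.33 (limma adjusted p = 0.35) that was 0.50 without control replicate 2. ZNF592 and ZNF687, partners in a complex with the chromatin reader ZMYND8, differed by 0.63 ± 0.27 and 0.25 ± 0.23, with all siSLU7 arrays above all controls in both. ZNF445, which protects genomic imprints with ZFP57, showed no such separation: it was 11.69, 11.74 and 11.34 in the controls and 11.84, 11.50 and 11.68 with SLU7 siRNA, a difference of 0.086 with a 95% interval from -0.49 to 0.66.

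Among developmental and tumour-related members the dim genes ZNF521 and ZNF382 were higher without overlap. ZNF521, a cofactor that binds EBF factors in progenitor cells, was 5.29, 5.07 and 4.97 log2 units in the controls and 6.61, 5.57 and 6.21 with SLU7 siRNA, a difference of 1.02 ± 0.31 (SE; limma adjusted p = 0.20). Its paralog ZNF423 was dim in both groups, at 3.18 and 3.10, and the groups overlapped (95% interval of the difference from -1.08 to 0.91). ZNF382, a KRAB repressor, was 2.50, 2.12 and 2.80 in the controls and 3.11, 4.37 and 4.64 with SLU7 siRNA, a difference of 1.57 ± 0.42 (limma adjusted p = 0.14) at levels low enough to leave its size uncertain. The groups overlapped in the related corepressors ZNF503 (-0.26 ± 0.30) and ZNF703 (0.14 ± 0.30), in ZNF384 (0.069 ± 0.27), a gene known from leukaemia fusions, and in ZNF746 (-0.27 ± 0.32), the parkin substrate PARIS. ZNF350, the BRCA1-binding repressor ZBRK1 (-0.31 ± 0.55), and ZNF395, which is linked to the hypoxia response (0.083 ± 0.30), overlapped as well. ZNF350 turned to 0.26 without control replicate 2.

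**Figure D4:**
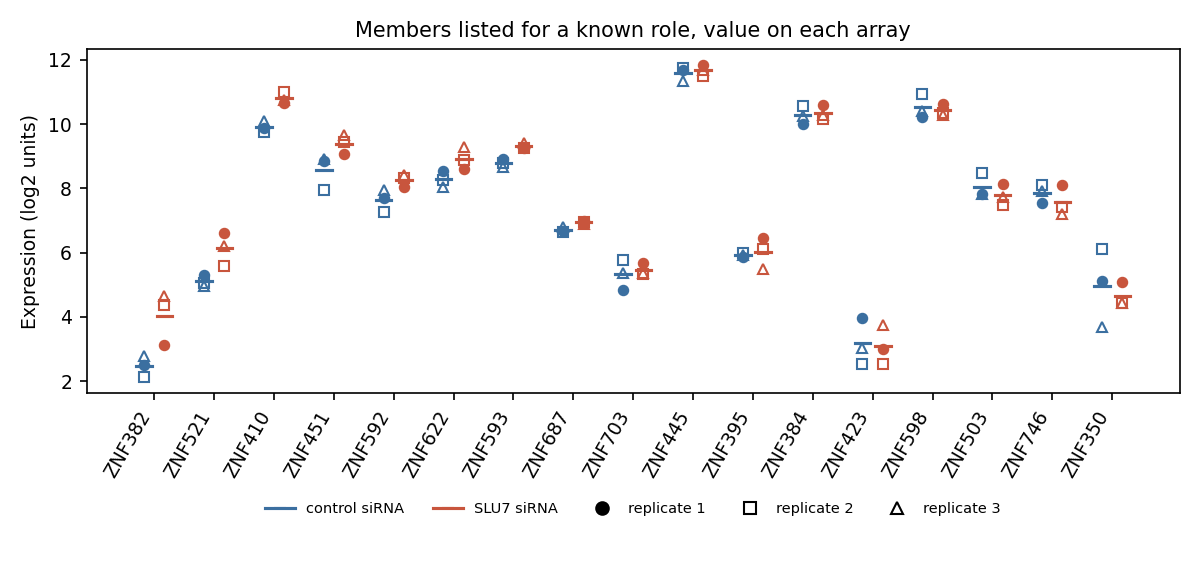
Expression (vertical axis, log2 units) on each array for the 17 measured members with a listed role, ordered by their difference from largest to smallest; blue is control siRNA, red SLU7 siRNA, markers are replicates 1 to 3 and bars the group means. The first 8 genes, from ZNF382 to ZNF687, have no overlap between groups and the other 9 overlap.

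The median difference was lowest among the brightest rows. With all clusters divided into 4 equal classes by their mean level, at 4.92, 6.61 and 8.16 log2 units, the members' median difference was 0.23 in the dimmest class (66 members), 0.35 in the second (78), 0.25 in the third (75) and 0.071 in the brightest (41). The corresponding medians of all clusters were 0.036, -0.0096, -0.013 and 0.0063. The share of members with all siSLU7 arrays higher was 12.1%, 21.8%, 29.3% and 26.8% from the dimmest to the brightest class, and the share of all clusters 6.16%, 7.87%, 10.5% and 14.1%. In the brightest class, 11 of 41 members lay higher without overlap and 1 (2.44%) lower, against 14.1% and 13.2% of all clusters in that class. Differences between these classes were not tested.

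Members beside other ZNF genes and members away from them had similar medians when bright and dim rows were pooled. With bright and dim rows kept apart, the medians differed by small amounts in opposite directions. In the RefSeq gene order, 152 members had another ZNF gene as the next protein-coding gene on at least 1 side and 100 had none. Their pooled median differences were 0.23 and 0.24 log2 units, with 110 (72.4%) and 73 (73.0%) above 0. The siSLU7 arrays all lay higher for 30 (19.7%) of the members with a ZNF neighbour and for 26 (26.0%) of those without, and the 4 members that lay lower without overlap all had one, where the shares of all clusters were 9.64% and 9.21%. Among bright members the median was 0.18 for the 65 with a ZNF neighbour and 0.23 for the 48 without, and 13 of the 65 and 18 of the 48 (37.5%) lay higher without overlap, against 12.3% of bright clusters. Among dim members the order of both was the opposite, with medians of 0.36 for the 87 with a neighbour and 0.25 for the 52 without, and 17 (19.5%) and 8 (15.4%) higher without overlap, against 7.01% of dim clusters. These differences were not tested. The 8 members outside the protein-coding order had a median of 0.47.

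Runs of neighbouring ZNF genes were uneven within themselves. In 9 runs at least 5 members were measured, and their medians ran from 0.065 log2 units (5 members, ZNF768 to ZNF689) to 0.53 (6 members, ZNF551 to ZNF256). The run from ZNF566 to ZNF793, which holds ZNF383 and ZNF382, had 15 members with a median of 0.44, 11 of them above 0, and differences from -0.61 to 1.57. The run from ZNF737 to ZNF681 had 9 members with a median of 0.12 and spanned -1.73 (ZNF681) to 1.25, so neighbours lay apart in both directions. The run from ZNF786 to ZNF746 held ZNF425 at 1.98 and ZNF746 at -0.27. Duplicated zinc finger genes share sequence, and how far a row reads a related gene was not tested. The 17 rows that carry several symbols, 1 of them of this kind, were left out above and had a median difference of 0.17. The further rows of ZNF616 and ZNF770 differed by 0.95 ± 0.38 (SE) and -0.14 ± 0.40 log2 units, against 0.21 and 0.19 in the rows used.

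**Figure D5:**
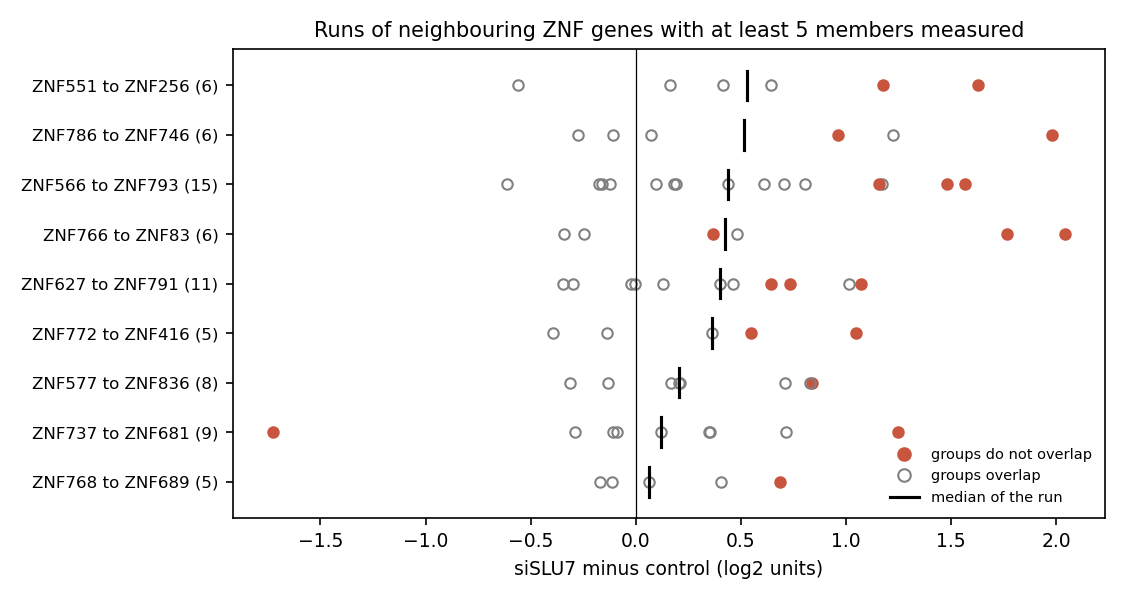
Difference between siSLU7 and control means (horizontal axis, log2 units) of each member in the 9 runs of neighbouring ZNF genes with at least 5 members measured (vertical axis, run named by its first and last gene, number of members in brackets); filled red points have no overlap between groups, open points overlap and black bars are run medians. Each run has points on both sides of 0, and the medians lie between 0.065 and 0.53.

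Related families were shifted in the same direction. The 126 measured ZNF genes with numbers under 300 had a median difference of 0.40 log2 units, with 42 (33.3%) higher without overlap and 0 lower (9.64% and 9.21% of all clusters). The 54 ZBTB, ZSCAN and ZKSCAN genes, zinc finger families with other protein interaction domains, had a median of 0.25, with 10 (18.5%) higher and 2 (3.70%) lower. The corresponding values of the ZNF genes numbered 300 and above were 0.24, 22.3% and 1.54%. Limma called 1 of the 126 and 1 of the 54 genes higher, and 0 lower in each set (0.134% and 0.299% of all clusters). At an unadjusted p under 0.05, 33 of the 126 were higher and 0 lower. Of the 54, 10 were higher and 2 lower (6.55% and 6.54% of all clusters). These families were measured on the same arrays, and their differences from one another were not tested.

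For the machinery that KRAB zinc finger proteins recruit, the median lay near that of all clusters. Of 34 listed cofactors, among them TRIM28, SETDB1, heterochromatin proteins, histone deacetylases, DNA methyltransferases and the SUMO pathway, 31 were measured. Their median difference was 0.055 log2 units, with 17 above 0. None passed the limma test, where 0.134% of all clusters were called higher and 0.299% lower. At an unadjusted p under 0.05 there were 0 higher and 2 lower, where 6.55% and 6.54% of all clusters lay past that mark. Without overlap between groups, 1 lay higher and 1 lower (3.23% each, against 9.64% and 9.21% of all clusters). TRIM28, the corepressor itself, was 10.50, 8.96 and 10.71 log2 units in the controls and 9.37, 10.97 and 10.30 with SLU7 siRNA. Its lowest values were on the 2 arrays that stand apart, and the difference of 0.16 had a wide 95% interval, from -1.08 to 1.40. SETDB1 was 7.47, 6.80 and 7.19 in the controls and 7.57, 7.45 and 7.84 with SLU7 siRNA, a difference of 0.47 ± 0.27 (SE; limma adjusted p = 0.55) that was 0.30 without control replicate 2.

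The 4 cofactors with the smallest p were all lower, in a list with 17 genes above 0 and 14 below. Among those above 0, TASOR2 differed by 1.01 ± 0.61 (SE) log2 units with overlapping groups (limma adjusted p = 0.56). MORC2 differed by 0.33 ± 0.24 without overlap (limma adjusted p = 0.66). UHRF1, which couples maintenance DNA methylation to replication, was 9.30, 9.43 and 9.08 log2 units in the controls and 8.40, 8.44 and 8.39 with SLU7 siRNA. Its groups did not overlap, and the difference was -0.86 ± 0.24 (SE; limma adjusted p = 0.15). DNMT3B, a de novo DNA methyltransferase, was 7.14, 6.17 and 6.75 in the controls and 4.24, 6.66 and 3.70 with SLU7 siRNA. Here siSLU7 replicate 2 lay among the controls, and the difference of -1.82 ± 0.69 had a limma adjusted p of 0.30. HDAC1 and CHD3, subunits of the NuRD complex, differed by -0.66 ± 0.30 (limma adjusted p = 0.40) and -0.67 ± 0.30 (limma adjusted p = 0.40).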

How the data were processed

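Per the labels, the authors summarised the arrays with the core chip definition of aroma.affymetrix, and the submitters' processing notes name RMA. The deposited values are read as log2 from their range; the build and the order of steps are not given in the sources at hand. Values of all core probe sets of a gene are merged, so exon skipping or retained introns cannot be read from them. Of 18708 clusters, 16287 had 1 gene symbol; 2179 symbols were updated through the RefSeq table (GRCh38.p14), used for names, gene order and promoters.

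The group difference was fitted with limma 3.58.1 in R 4.3.3 (lmFit and eBayes, group as the only term, no filter) with Benjamini-Hochberg adjustment over all clusters at 0.05. In simulations of this comparison (18708 clusters), 84.4% of the 2 log2 unit changes were recovered, and 5.30% of those of 1 log2 unit. A mean of 6.45 unchanged clusters per simulation were called as well. The simulated arrays had independent noise in each cluster, drawn with the spread that limma had already moderated. They lacked the first principal component of the real arrays (36.6% of the variance), so recovery there may differ. The number of arrays limits the precision. The replicate numbers were not treated as pairs in this fit. Named genes were the called members, up to 8 of the largest differences each way among bright and 3 among dim members without overlap, a list of 18 members with a known role, and from the cofactor list TRIM28, SETDB1 and the 4 with the smallest p. Genes that end the range of a count or lie below -1 were named after their values were seen. A division of members by KRAB domain was not analysed here. The domain is mentioned as background for some genes and not for every gene that carries it. The members and lists were chosen with earlier results of these data known.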

Additional observations from a re-analysis of the deposited data

How the results depend on the processing

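The median difference stayed above 0 in every alternative run, from 0.15 to 0.24 for bright members and from 0.23 to 0.39 for dim ones, including quantile normalization, median centring and a split at the lower quartile (0.24 above and 0.23 below). Calls depended far more on the fit. With the 2 arrays that stand apart as a block, limma called 783 clusters (357 higher, 426 lower) and 20 members (19 higher). With array weights it called 575 clusters (221 higher, 354 lower) and 16 members (15 higher). An intensity trend and robust shrinkage gave 441 clusters (173 higher, 268 lower) and 9 members, all higher. Without the clusters under the lower quartile, which leaves 194 members, 324 clusters (121 higher, 203 lower) and 8 members passed, all 8 higher. ZNF304 was among the members called in each of these 4. The block of 2 arrays was chosen from the values of these arrays. At an adjusted p under 0.01, in the other 4 arrays alone and with the replicate block, 0 clusters and 0 members passed (at an unadjusted p under 0.05, 64 members were higher and 2 lower in the other 4 arrays, against 7.85% and 7.77% of all clusters, and 41 higher and 2 lower with the replicate block, against 4.77% and 5.09%), where the analysis as reported called 81 clusters and 1 member. Deviations of same-numbered arrays from their group means correlated at -0.38, -0.31 and 0.14 for replicates 1, 2 and 3. Replicates 1 and 2 each include 1 of the 2 arrays that stand apart. The correlations therefore cannot decide whether replicates were handled in pairs. SLU7 passed with the 2 arrays as a block (-1.51, adjusted p = 0.043), with array weights (-1.61, 0.027), without the clusters under the lower quartile (-1.51, 0.041) and with the trend (-1.51, 0.033). In the other 4 arrays, where 24.0% of all clusters lay higher without overlap and 22.2% lower, 123 members lay higher and 22 lower, groups of 2 arrays overlapping less often by construction. Without any 1 array, 64 to 94 members lay higher, against 13.2% to 17.2% of all clusters (94 without siSLU7 replicate 1, against 15.9%). Between 5 and 14 members lay lower (12.0% to 16.0% of all clusters), and 0 clusters and 0 members were called. In those analyses the SLU7 difference ran from -1.69 to -1.25, and that of ZNF703 from -0.10 to 0.36, ZNF384 from -0.062 to 0.22, ZNF423 from -0.41 to 0.31, ZNF598 from -0.26 to 0.10, ZNF350 from -0.95 to 0.26, TRIM28 from -0.39 to 0.58, ZNF445 from -0.038 to 0.17 and ZNF395 from -0.13 to 0.34. Without a change of sign, ZNF503 ran from -0.43 (without siSLU7 replicate 1) to -0.046 (without control replicate 2) and ZNF746 from -0.54 (without siSLU7 replicate 1) to -0.085 (without siSLU7 replicate 3). ZNF350 also turned to 0.044 with array weights and 0.043 in the other 4 arrays, where ZNF395 was -0.10. The cause of these changes was not tested.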
